A study of Homo sapiens with 12 samples.

Results

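The genes described here are 38 genes of the NF-kB system, 18 pathway components and 20 genes taken here as induced targets of NF-kB. They were chosen by symbol, each gene being represented by the probe with the highest mean level among its probes with a detection p-value under 0.05 on 2 or more of 12 arrays. Of the 38 genes, 35 were measured in this way, among 13702 genes tested in all. These 35 were 16 components and 19 targets. BIRC3 and TRAF2 had no named probe and were not analysed here, and the probe of CCL4 was detected on 1 array only and was left out.

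The cells were Raji, a Burkitt lymphoma cell line of B cell origin that carries Epstein-Barr virus. Every sample, controls included, was transduced with an shRNA, selected with puromycin for 48 h and harvested for total RNA on day 3 after transduction. shCREM targeted CREM, a cAMP-responsive transcription factor, and had 2 arrays, for hairpin A and for hairpin B. shMS4A1 targeted MS4A1, the gene of the B cell surface protein CD20, and had 3 arrays, for hairpins A, B and C. shMBD2 targeted MBD2, which binds methylated DNA, and had 4 arrays, of which 2 carried hairpin A and 2 carried hairpin C. The control, called NTC in the labels, had 3 arrays. By the form of their labels the arrays fall into a set without replicate numbers (set 1: shCREM, shMS4A1 and 1 shNTC array) and a set with them (set 2: shMBD2 and 2 shNTC arrays). Knockdowns were compared with the control of their own set, so shCREM and shMS4A1 share 1 control array. Whether replicates were independent cultures is not stated in the labels, so p-values measure only the spread between these samples, which may be technical. In set 1 each array of a knockdown carried a different hairpin, so the spread there also holds differences between hairpins. The 1 control array of set 1 has no spread of its own, and p-values against it use the spread within the other groups.

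NF-kB is a family of dimeric transcription factors built from RELA, RELB, c-Rel, p50 and p52. In the canonical pathway, IkB proteins hold the dimers in the cytoplasm until an IkB kinase (IKK) complex marks them for degradation, and in the alternative pathway the kinase NIK drives the processing of p100 to p52. The dimers induce cytokines, survival genes and also several of their own inhibitors, and in B cells the pathway acts downstream of the antigen receptor, CD40 and other members of the TNF receptor family.

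Levels are normalized probe intensities on the log2 scale, on which a difference of 1 is a doubling, and the lowest detected probe of an array lay between 4.47 and 4.52. MS4A1 had a level of 6.19, 6.17 and 6.18 under shMS4A1, against 7.35 on the shNTC array of set 1 (-1.17 ± 0.32 log2, SE, limma adjusted p = 0.29), and so did not pass the threshold. In set 2 its level was 7.90, 7.67, 7.40 and 7.68 under shMBD2, against 7.11 and 6.24 under shNTC (0.99 ± 0.24 log2, adjusted p = 0.0362), so that 1 control array was close to the shMS4A1 arrays. MS4A1 was higher under shCREM than under shMS4A1 (2.04 ± 0.25 log2, adjusted p = 0.000364). CREM was near background, detected on 4 of 12 arrays and on neither shCREM array. Against 5.10 on the shNTC array of set 1 its level was at least 1.53-fold lower (limma adjusted p = 0.528). That bound rests on 1 control array, and CREM was also undetected on both shNTC arrays of set 2 (4.25 and 4.47). These arrays therefore do not show whether CREM mRNA fell. MBD2 fell to 5.78, 5.50, 5.92 and 5.38 under shMBD2, against 7.22 and 7.61 under shNTC (-1.77 ± 0.24 log2, adjusted p = 0.00105). The B cell genes CD79A, CD79B, CD22, CR2, BLK and VPREB3 were detected on all 12 arrays, with a summed level between 13.98 and 14.28, of which CD79B alone had 13.21 to 13.66. Single markers differed, with CD79A lower under shMBD2 than under shNTC (-0.87 ± 0.13 log2, adjusted p = 0.00225) and CD22 higher under shCREM than under shMS4A1 (1.07 ± 0.27 log2, adjusted p = 0.0277). Under shMS4A1 against shNTC, CR2 (-0.88 ± 0.32 log2) and VPREB3 (0.91 ± 0.22) did not pass. Of the T and NK cell markers 0 of 5 measured were detected on all arrays. Each was detected on 2 to 8 arrays, so their sums are largely background. Their summed level was 6.81 to 6.95 under shMS4A1, 6.97 to 7.01 under shCREM and 7.37 under shNTC in set 1. In set 2 it was 6.75 to 7.02 under shMBD2 and 6.99 to 7.36 under shNTC. The summed level of 5 epithelial and fibroblast markers, of which COL1A1 was detected on all arrays, was 6.96 to 7.59 under shMS4A1, 7.10 to 7.69 under shCREM and 7.74 under shNTC in set 1, and 7.46 to 7.81 under shMBD2 against 7.14 to 7.24 under shNTC in set 2. COL1A1 did not pass under shMS4A1 (-1.33 ± 0.47 log2, adjusted p = 0.582) or shMBD2 (1.04 ± 0.35 log2, adjusted p = 0.123). The summed level of 5 myeloid markers, of which FCGR3A was detected on all arrays, was 7.29 to 7.42 under shMS4A1, 7.22 to 7.32 under shCREM and 7.49 under shNTC in set 1. In set 2 it was 7.17 to 7.71 under shMBD2 and 7.31 to 7.67 under shNTC. The part of these markers in the results was not tested. The number of detected probes ran from 18652 to 20483 per array, with the lowest on shNTC replicate 1 of set 2.

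The comparison of shMS4A1 with shNTC asks what the knockdown of CD20 does to the pathway. Of the induced targets 5 of 19 were lower under the CD20 hairpins, as was 1 of 16 components, and 0 of 5 DNA-binding subunits passed. In all, 6 of the 35 measured genes were lower and 0 were higher at an adjusted p under 0.05 (limma, 3 arrays against 1). Over all genes tested, 0.161% were lower and 0.0365% higher, and 0.197% passed in either direction. The members were chosen with earlier results of these data known, so this count and those in the comparisons below are descriptions. The 6 were the cytokine genes LTA and EBI3, the adaptor TRAF1, the microRNA host gene MIR155HG, LITAF and SRGN. Lower mRNA in the whole culture cannot be told apart from fewer cells that express the gene.

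**Figure D1:**
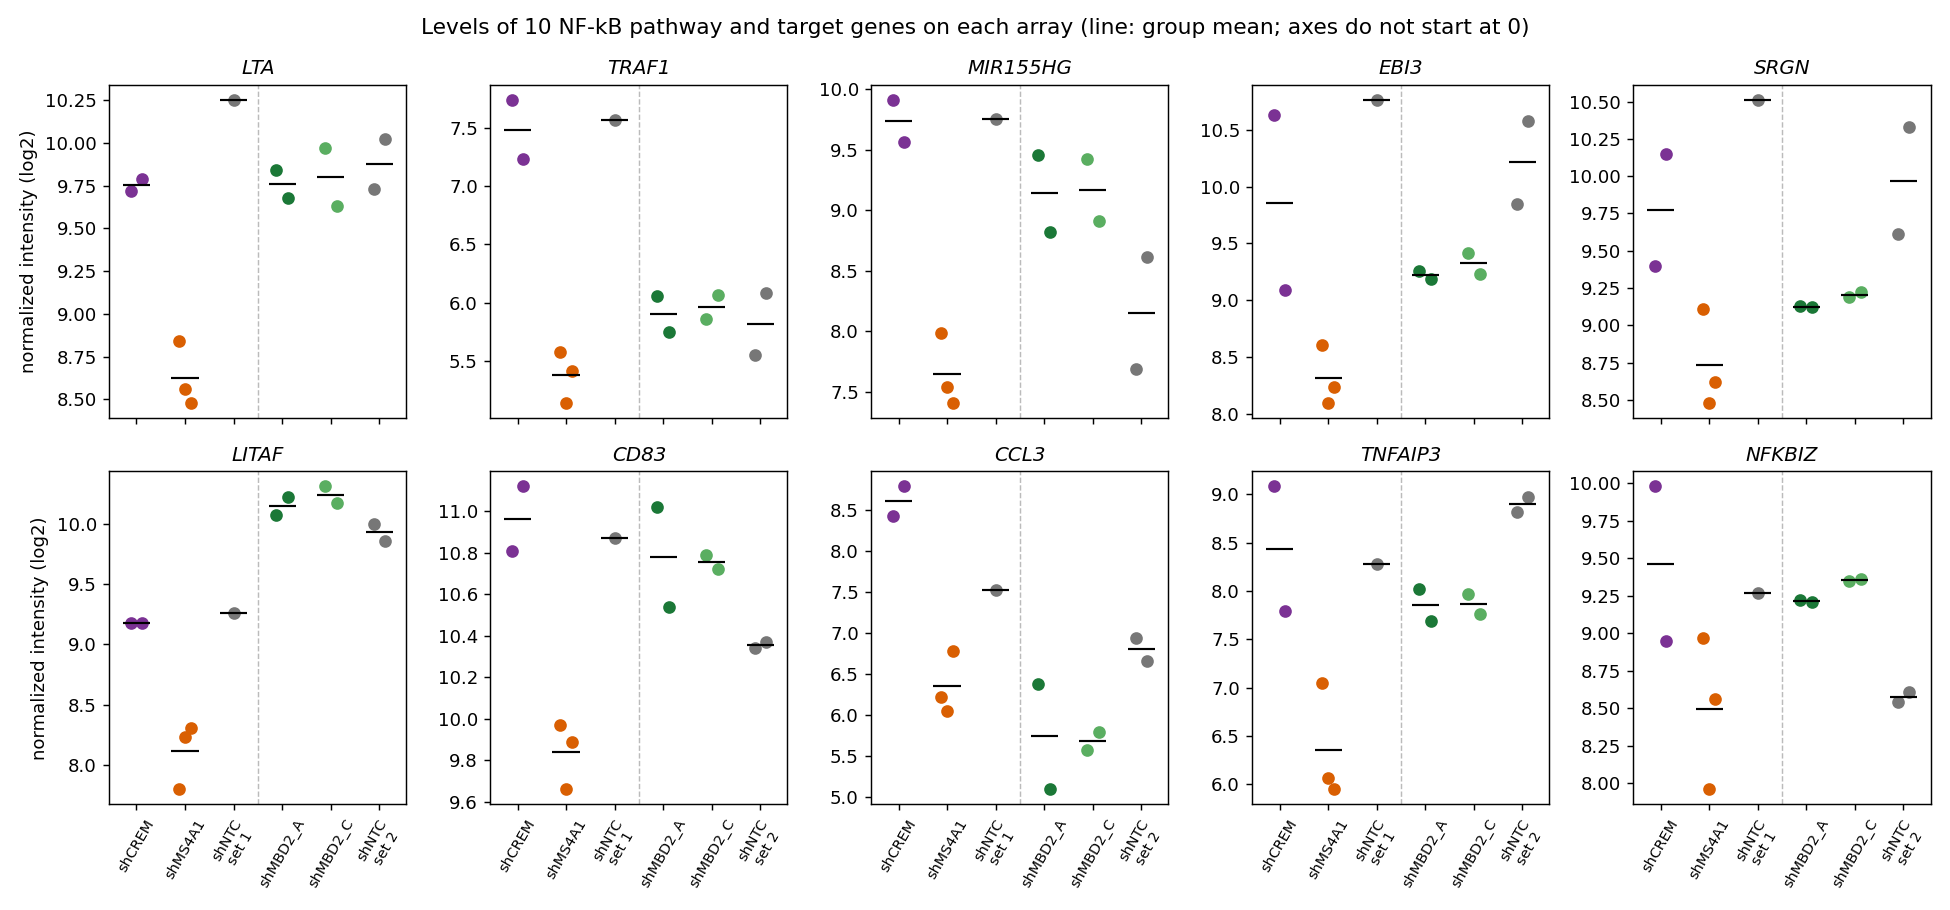
Level of 10 genes that passed the threshold in at least 1 comparison on each of the 12 arrays, as normalized intensity in log2 (vertical axes do not start at 0). Points are arrays, lines are group means, and the dashed line separates set 1 (left) from set 2 (right). In set 1 all 3 shMS4A1 points lie below the shNTC point in each of the 10 panels, and in the panel of NFKBIZ the lower shCREM point lies within the shMS4A1 range.

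LTA encodes lymphotoxin alpha, a TNF family cytokine of lymphocytes. Its level was 8.84, 8.56 and 8.48 under shMS4A1 hairpins A, B and C, against 10.25 under shNTC. All 3 hairpins lay below the control, and the difference was -1.63 ± 0.21 log2 (95% interval -2.07 to -1.18, adjusted p = 0.0041). EBI3, a subunit of cytokines of the IL-12 family, had levels of 8.61, 8.10 and 8.24 under shMS4A1, against 10.76 under shNTC (-2.45 ± 0.40 log2, adjusted p = 0.0221). The hairpins differed from each other by far less than from the control. Of the other cytokine and chemokine genes, CCL22, a chemokine that attracts T cells, had the largest difference of all measured members, with 5.52, 4.80 and 5.32 under shMS4A1 and 8.30 under shNTC. This difference of -3.09 log2 had a wide error (SE 0.65) and did not pass (adjusted p = 0.0887). CCL3, an inflammatory chemokine, also did not pass (-1.18 ± 0.42 log2, adjusted p = 0.582), nor did TNF (-0.68 ± 0.40) or CCL5 (-0.69 ± 0.36). LTB, which encodes the membrane partner of lymphotoxin alpha, had a difference of 0.00 ± 0.29 log2. The 7 measured cytokine and chemokine genes had a median of -1.18 log2, against 0.00 for all genes tested.

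MIR155HG is the non-coding transcript from which the microRNA miR-155 is cut, a regulator of B cell activation. The gene lies at chr21:25562145-25575168 (GRCh38.p14), and the mature sequences, given by RefSeq in this build, lie on the plus strand at chr21:25573983-25574006 (5p) and chr21:25574022-25574043 (3p). They are shown because the array measured the host transcript and not the mature microRNA. Capitals mark the seed, bases 2 to 8, and the seeds of the arms differ.
hsa-miR-155-5p: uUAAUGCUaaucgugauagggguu
hsa-miR-155-3p: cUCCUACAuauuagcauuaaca
MIR155HG had levels of 7.99, 7.54 and 7.41 under shMS4A1, against 9.75 under shNTC (-2.10 ± 0.35 log2, adjusted p = 0.0221). SRGN, the proteoglycan serglycin of secretory granules, had 9.11, 8.48 and 8.62 under shMS4A1, against 10.51 under shNTC (-1.77 ± 0.31 log2, adjusted p = 0.0236). LITAF, an endosomal membrane protein first described as a regulator of TNF, had 7.80, 8.23 and 8.31 under shMS4A1, against 9.26 under shNTC (-1.15 ± 0.21 log2, adjusted p = 0.037), a call that was lost in 12 of 24 alternative settings. For each of these genes all 3 shMS4A1 arrays lay below the control, and hairpin A was the highest of them for MIR155HG and SRGN and the lowest for LITAF. IRF1 (-0.24 ± 0.29 log2) and JUNB (-0.44 ± 0.29), which encode transcription factors, did not pass.

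TRAF1, an adaptor of TNF receptors that is itself induced by NF-kB, was the 1 component of 16 that passed. It had levels of 5.58, 5.14 and 5.41 under shMS4A1, against 7.57 under shNTC (-2.20 ± 0.34 log2, adjusted p = 0.0149). The second TRAF1 probe, detected on 9 of 12 arrays, averaged 4.84 under shMS4A1 and 4.85 on the shNTC array, near background, and the mean of both probes did not pass (-1.10 log2, adjusted p = 0.2). NFKB2, which encodes p100, came close with 7.20, 6.90 and 7.14 under shMS4A1 and 8.20 under shNTC (-1.12 ± 0.23 log2, adjusted p = 0.0712). Its second well detected probe gave -1.11 log2. TNFAIP3, the ubiquitin-editing inhibitor A20, had 7.05, 6.07 and 5.95 under shMS4A1 and 8.28 under shNTC (-1.92 ± 0.43 log2, adjusted p = 0.117).

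The remaining DNA-binding subunits had small differences that did not pass, namely RELA (-0.13 ± 0.28 log2), RELB (-0.13 ± 0.24), REL (-0.06 ± 0.36) and NFKB1 (-0.38 ± 0.20). Among the kinases and ubiquitin ligases, IKBKB, a catalytic subunit of IKK, differed by -0.28 ± 0.26 log2, MAP3K14, which encodes NIK, by -0.15 ± 0.39, TRAF3 by 0.07 ± 0.31 and BIRC2 by 0.01 ± 0.27. These intervals are wide, with 95% limits of -0.83 and 0.71 log2 for REL and of -0.83 and 0.27 for IKBKB. The IkB genes NFKBIA (-0.61 ± 0.28), NFKBIB (-0.70 ± 0.34), NFKBIZ (-0.77 ± 0.35) and NFKBIE (-0.09 ± 0.24) and the A20 partner TNIP1 (-0.32 ± 0.22) were all below 0 and did not pass. The second NFKBIB probe, detected on all 12 arrays, went the other way, with 6.06 under shMS4A1 and 5.91 on the shNTC array (0.15 log2). Of the surface proteins, CD83, a marker of activated B cells, just missed the threshold with 9.97, 9.66 and 9.89 under shMS4A1 and 10.87 under shNTC (-1.03 ± 0.20 log2, adjusted p = 0.0563). The adhesion molecule ICAM1 (-0.38 ± 0.30) and the TNF family ligand CD70 (-0.43 ± 0.24) did not pass. The 4 survival and stress genes, CFLAR (-0.82 ± 0.38), BCL2A1 (-0.20 ± 0.40), IER3 (-0.08 ± 0.42) and SOD2 (0.03 ± 0.18), did not pass either, and BCL2A1 was near background, detected on 8 of 12 arrays.

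Components and induced targets differed in how far they lay below 0. The median over the 16 components was -0.30 log2 with 1 lower, and the median over the 19 targets was -0.69 log2 with 5 lower, against 0.00 for all genes tested. The components that NF-kB does not itself induce (6 measured) had a median of -0.14 log2, and those that it induces (10 measured) had -0.50. The order was the same under each hairpin, with medians over targets of -0.63, -0.89 and -0.71 log2 under A, B and C, against medians over components of -0.21, -0.37 and -0.31. Of the 35 genes 32 had a difference below 0, and on 26 every shMS4A1 array lay below the control array, which held for 28.8% of all genes tested (25.1% lay above and 53.9% on either side). These counts rest on 1 control array, which enters every difference. The controls of set 2 averaged 5.82 for TRAF1 and 8.15 for MIR155HG, against 7.57 and 9.75 on the control of set 1. In a fit without the set term, which sets shMS4A1 against all 3 controls, 4 of the 6 calls were kept, and TRAF1 (-1.03 log2, adjusted p = 0.153) and MIR155HG (-1.04 log2, adjusted p = 0.137) did not pass. That fit called 9 members in all, with NFKB2, TNFAIP3, CCL22, CD70 and JUNB added.

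**Figure D2:**
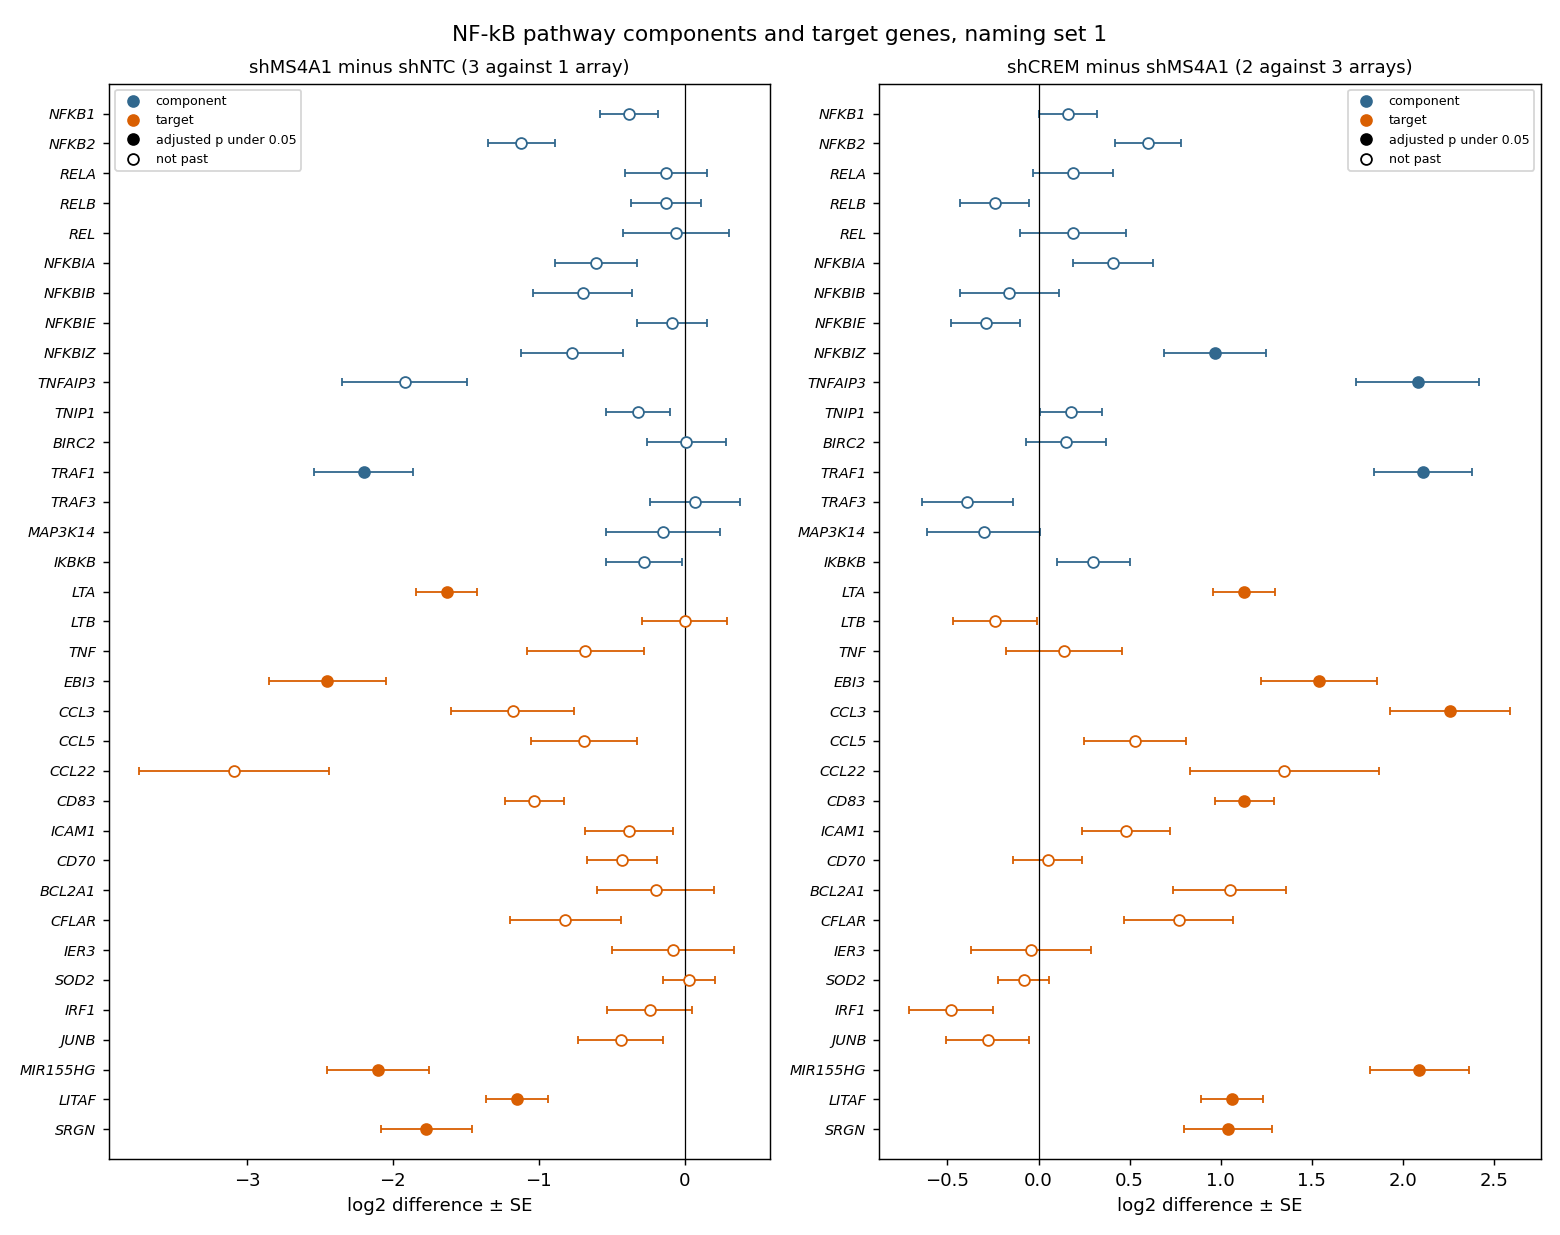
Difference between groups in set 1 for the 35 measured genes, components (blue) above targets (orange), in log2 with the standard error of limma's model. Filled points passed an adjusted p of 0.05. For shMS4A1 minus shNTC (left), 6 genes passed, all below 0, and for shCREM minus shMS4A1 (right), 10 passed, all above 0.

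The calls of this comparison depended on the arrays and on the model. Without hairpin B, and likewise without hairpin C, 1 of the 6 genes passed, LTA (adjusted p = 0.0186 and 0.0185), and without hairpin A 5 of the 6 passed, all but LITAF, and TNFAIP3 passed as well. The number of these genes called was 3 without either shMBD2_A array, 4 without either shMBD2_C array and 10 without either shCREM array. Fitted on set 1 alone, 0 of 35 passed, with LTA at an adjusted p of 0.0618.

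The direct comparison of shCREM with shMS4A1 asks where the CREM and CD20 hairpins differ. Its differences use no control array, but the controls of set 2 enter the shared spread behind its p-values. Of the induced targets 7 of 19 were higher under shCREM, among them cytokine genes, CD83 and MIR155HG. Of the 35 measured genes 10 were higher and 0 lower (2 arrays against 3), where 2.87% of all genes tested were higher, 3.25% lower and 6.12% called in either direction. The 10 were TRAF1, MIR155HG, CD83, LTA, CCL3, LITAF, TNFAIP3, EBI3, SRGN and NFKBIZ, 3 of 16 components and 7 of 19 targets. The shMS4A1 arrays are the same as in the comparison with shNTC, so the calls shared by both comparisons are not independent of each other.

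TRAF1 had levels of 7.74 and 7.23 under shCREM, against 5.58, 5.14 and 5.41 under shMS4A1 (2.11 ± 0.27 log2, adjusted p = 0.000419). MIR155HG had 9.91 and 9.56 under shCREM, against 7.99, 7.54 and 7.41 under shMS4A1 (2.09 ± 0.27 log2, adjusted p = 0.000513). CCL3 had 8.43 and 8.79 under shCREM, against 6.22, 6.05 and 6.78 under shMS4A1 (2.26 ± 0.33 log2, adjusted p = 0.00114), the largest difference among the 35. In all 3 genes the groups did not overlap and lay more than 1 log2 apart. LTA was at 9.72 and 9.79 under shCREM and at 8.84, 8.56 and 8.48 under shMS4A1 (1.13 ± 0.17 log2, adjusted p = 0.00114). CD83 was at 10.81 and 11.12 under shCREM and at 9.97, 9.66 and 9.89 under shMS4A1 (1.13 ± 0.16 log2, adjusted p = 0.000972), with 0.95 log2 at its second probe. LITAF was at 9.18 on both shCREM arrays and at 7.80, 8.23 and 8.31 under shMS4A1 (1.06 ± 0.17 log2, adjusted p = 0.00179). These genes also separated the groups completely.

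TNFAIP3 had levels of 9.08 and 7.79 under shCREM, against 7.05, 6.07 and 5.95 under shMS4A1 (2.08 ± 0.34 log2, adjusted p = 0.00253). Its shCREM arrays lay 1.29 log2 apart, with hairpin A the higher. EBI3 had 10.63 and 9.09 under shCREM, against 8.61, 8.10 and 8.24 under shMS4A1 (1.54 ± 0.32 log2, adjusted p = 0.00968), and without hairpin A it did not pass (0.78 log2, adjusted p = 0.113). SRGN had 9.40 and 10.15 under shCREM, against 9.11, 8.48 and 8.62 under shMS4A1 (1.04 ± 0.24 log2, adjusted p = 0.019). It did not pass without shCREM hairpin B (adjusted p = 0.158), nor without shMS4A1 hairpin B (0.0845) or C (0.0736). NFKBIZ, an atypical nuclear IkB protein, had 9.98 and 8.95 under shCREM, against 8.97, 7.96 and 8.56 under shMS4A1 (0.97 ± 0.28 log2, adjusted p = 0.0483). Its groups overlapped, and its call was lost in 17 of 25 alternative settings.

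NFKB2 (0.60 ± 0.18 log2, adjusted p = 0.0616) and BCL2A1, an anti-apoptotic BCL2 relative (1.05 ± 0.31, adjusted p = 0.0607), just missed the threshold. CCL22 (1.35 ± 0.52, adjusted p = 0.149) and CFLAR, an inhibitor of caspase activation (0.77 ± 0.30, adjusted p = 0.155), did not pass. Of the 5 DNA-binding subunits 0 passed and 1 had an unadjusted limma p under 0.05, their differences running from -0.24 log2 for RELB to 0.60 for NFKB2. The median over components was 0.19 log2 and the median over targets 0.77, against 0.00 for all genes tested. Components not induced by NF-kB had a median of -0.01 and induced components 0.30. On 16 genes both shCREM arrays lay above all 3 shMS4A1 arrays, and on 3 below, where 18.1% of all genes tested lay above, 17.7% below and 35.8% on either side. TRAF1, LTA, CCL3, CD83, MIR155HG, LITAF and TNFAIP3 kept their call in 25 of 25 alternative settings each.

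Promoter sequence was examined for the genes that were measured. RefSeq promoter windows (GRCh38.p14), running from 250 bases before a transcript start to 50 after it, were found for 28 of the 35 genes. A strict form of the site bound by NF-kB, GGGA and TTCC separated by any 2 bases, occurred on either strand in the windows of 10 of these 28 genes (35.7%), against 1.97% of 27305 genes with a window and 1.61% of all 35116 windows. It occurred in 8 of 13 components (61.5%) and in 2 of 15 targets (13.3%), CD83 and LTB. Every match to this motif is also a match to the looser kB consensus. This is GGG, then A or G, any 2 bases, 2 bases that are each C or T, and CC. The consensus occurred in 9 of 13 components (69.2%) and 7 of 15 targets (46.7%), against 13.3% of all genes with a window and 11.3% of all windows. Of the 6 genes lower under shMS4A1, 5 had a window, and 0 of these held the strict motif and 2, EBI3 and LTA, the consensus. Of the 10 genes higher under shCREM than under shMS4A1, 9 had a window, 3 held the strict motif, namely CD83, NFKBIZ and TNFAIP3, and 5 held the consensus.

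Windows of 4 genes are shown because they span this range, with CD83 and TNFAIP3 holding the strict motif, LTA the looser consensus only and MIR155HG neither. CD83 and LTA have 2 windows each, and the window with most matches is shown, strict matches counting first. All are on the plus strand, at chr6:14117522-14117821 for CD83, chr6:137867009-137867308 for TNFAIP3, chr6:31572039-31572338 for LTA and chr21:25561895-25562194 for MIR155HG. Capitals mark matches to the kB consensus on either strand, and overlapping matches run together.
CD83 promoter: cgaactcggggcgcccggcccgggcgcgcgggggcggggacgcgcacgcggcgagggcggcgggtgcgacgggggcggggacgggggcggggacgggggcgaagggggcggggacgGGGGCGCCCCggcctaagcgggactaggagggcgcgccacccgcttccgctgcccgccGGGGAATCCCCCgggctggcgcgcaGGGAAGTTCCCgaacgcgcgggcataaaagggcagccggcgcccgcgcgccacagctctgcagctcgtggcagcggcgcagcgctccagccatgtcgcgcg
TNFAIP3 promoter: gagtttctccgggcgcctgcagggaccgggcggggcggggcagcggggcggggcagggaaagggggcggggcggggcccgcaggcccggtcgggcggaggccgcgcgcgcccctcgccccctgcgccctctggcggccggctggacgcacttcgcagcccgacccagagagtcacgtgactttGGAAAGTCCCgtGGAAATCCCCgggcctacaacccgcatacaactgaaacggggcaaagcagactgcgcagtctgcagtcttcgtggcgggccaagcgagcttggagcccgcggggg
LTA promoter: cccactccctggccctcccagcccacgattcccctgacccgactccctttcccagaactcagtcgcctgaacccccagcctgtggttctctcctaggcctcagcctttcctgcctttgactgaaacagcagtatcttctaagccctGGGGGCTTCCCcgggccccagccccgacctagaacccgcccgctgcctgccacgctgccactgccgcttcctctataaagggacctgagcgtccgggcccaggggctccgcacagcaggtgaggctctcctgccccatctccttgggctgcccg
MIR155HG promoter: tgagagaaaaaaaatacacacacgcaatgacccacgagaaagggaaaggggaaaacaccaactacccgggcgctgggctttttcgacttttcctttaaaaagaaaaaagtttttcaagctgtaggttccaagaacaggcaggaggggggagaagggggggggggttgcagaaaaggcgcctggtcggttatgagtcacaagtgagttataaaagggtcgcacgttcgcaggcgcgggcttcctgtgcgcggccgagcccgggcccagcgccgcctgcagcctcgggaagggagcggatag
CD83 held 6 matches, some of them overlapping, TNFAIP3 held 2 and LTA held 2 that overlapped, all of them before the transcript start. MIR155HG had 0 matches in its window. A match describes these letters only, and sites outside the windows were not examined.

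The effect of the CREM hairpins on their own was read from shCREM against shNTC, although a fall of CREM mRNA was not shown. No member passed (0 of 35, limma, 2 arrays against 1, with 0.0073% of all genes tested called), and 8 had an unadjusted p under 0.05, as did 1140 of 13702 genes. CCL3 stood at 8.43 and 8.79 under shCREM and at 7.53 under shNTC (1.08 ± 0.45 log2, adjusted p = 0.538). CCL22 stood at 7.82 and 5.31 under shCREM and at 8.30 under shNTC (-1.73 ± 0.69 log2, adjusted p = 0.515). NFKBIB, an IkB protein, stood at 7.21 and 6.19 under shCREM and at 7.57 under shNTC (-0.87 ± 0.36 log2, adjusted p = 0.54). The genes that were lower under shMS4A1 lay near the control or below it, with TRAF1 at -0.09 ± 0.36 log2, MIR155HG at -0.01 ± 0.37, LITAF at -0.08 ± 0.22, LTA at -0.49 ± 0.22, SRGN at -0.74 ± 0.32 and EBI3 at -0.90 ± 0.43. The median was -0.17 log2 over components and also over targets. Groups did not overlap for 19 of the 35 genes, 4 above and 15 below the control, where 31.5% of all genes tested lay above, 34.5% below and 66% on either side.

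The shCREM hairpins differed from each other on these genes. The 2 arrays lay more than 1 log2 apart on 9 of 35 genes (25.7%), against 4.56% of all genes tested. Hairpin A was higher than hairpin B for CCL22 (7.82 and 5.31), EBI3 (10.63 and 9.09), BCL2A1 (6.40 and 5.06), CFLAR (8.52 and 7.18) and TNFAIP3 (9.08 and 7.79). IER3 (5.77 under A, and undetected at 4.53 under B), NFKBIZ (9.98 and 8.95) and NFKBIB (7.21 and 6.19) also had the higher level under A, and TNF had the lower (7.08 under A and 8.20 under B). In all, A was above B on 23 of 35 genes, 12 of them components and 11 targets, where 51.6% of all genes tested lay above. Against the control, the median over components was 0.09 log2 under A and -0.34 under B, and the median over targets -0.13 under A and -0.36 under B. With 1 array per hairpin these differences have no replicate check and no p-value. Without hairpin A, EBI3 and CCL22 passed in the comparison with shNTC, and without hairpin B 0 of 35 passed.

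**Figure D3:**
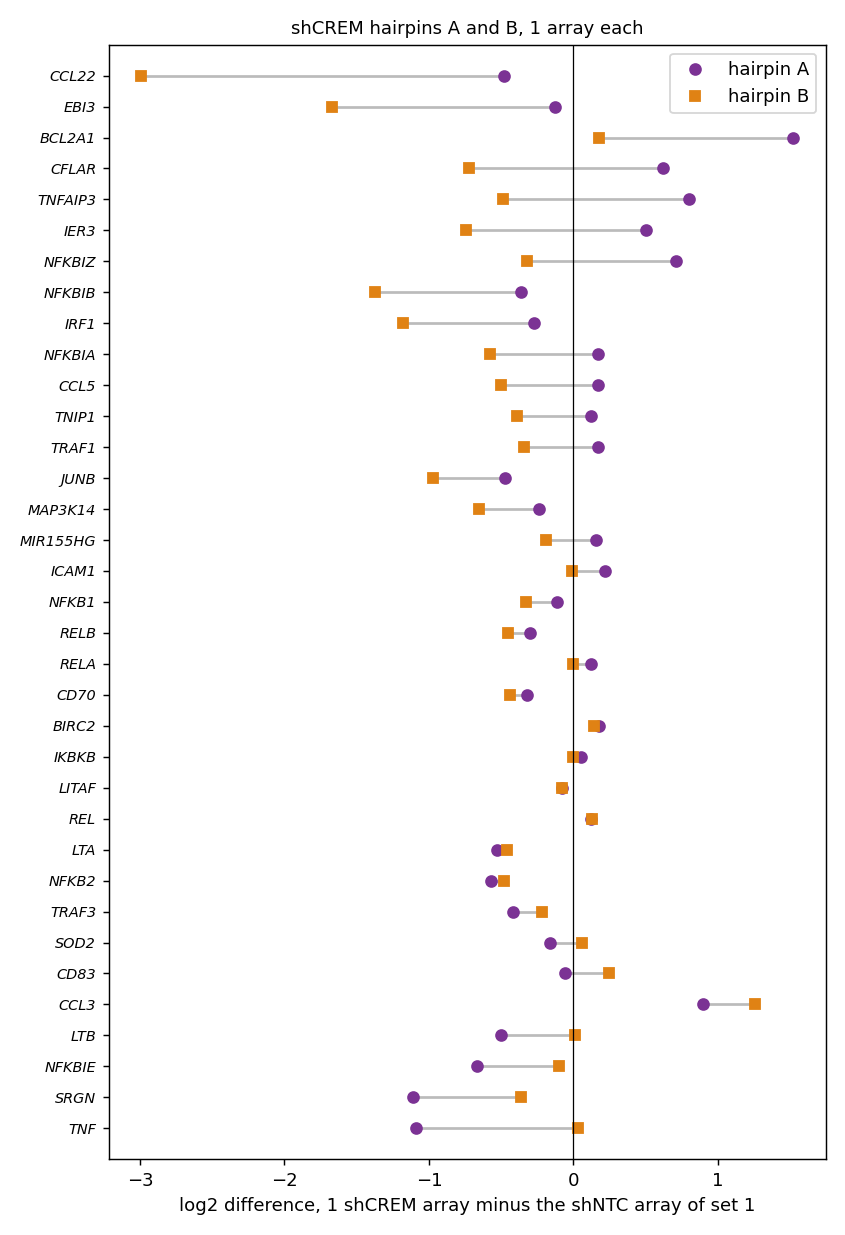
Level under shCREM hairpin A (purple circles) and hairpin B (orange squares) minus the level on the shNTC array of set 1, for 35 genes, in log2, 1 array per point, with genes ordered by the difference between the hairpins. Grey lines join the 2 arrays of a gene. The longest line is that of CCL22 at the top (-0.48 under A and -2.99 under B), and LITAF and REL have hairpins at nearly the same value.

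The comparison of shMBD2 with shNTC asks what the knockdown of MBD2 does. MIR155HG was the only member called, and it was higher. Its level was 9.46 and 8.82 under hairpin A and 9.42 and 8.91 under hairpin C, against 7.69 and 8.61 under shNTC. All 4 shMBD2 arrays lay above both controls, which themselves were 0.92 log2 apart (1.00 ± 0.26 log2, adjusted p = 0.05, below the threshold before rounding). This is 1 of 35 genes (4 arrays against 2), where 2.86% of all genes tested were called, 1.55% higher and 1.31% lower, so the share of these genes called equalled that over all genes. The call was lost in 18 of 25 alternative settings. Among them it did not pass without shNTC replicate 1 (0.54 log2, adjusted p = 0.533), without any 1 of the shMBD2 arrays (0.0621 to 0.171) or of the shMS4A1 arrays (0.0543 to 0.0738), or without the shNTC array of set 1 (0.0506). Without shNTC replicate 2 it passed (1.46 log2, adjusted p = 0.00819), as did NFKB1 and CD70. The number of members called was 5 without either shCREM array and 4 in a fit on set 2 alone (NFKBIZ, TNFAIP3, EBI3 and SRGN).

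SRGN and EBI3, which were lower under shMS4A1, and CCL3, TNFAIP3 and BCL2A1, which did not pass there, had values below 0 under shMBD2 that did not pass. SRGN had levels of 9.13, 9.12, 9.19 and 9.22 under shMBD2, against 9.61 and 10.33 under shNTC (-0.81 ± 0.23 log2, adjusted p = 0.0687). CCL3 had 6.38, 5.09, 5.57 and 5.79 under shMBD2, against 6.94 and 6.66 under shNTC (-1.09 ± 0.32 log2, adjusted p = 0.0711). In both genes all shMBD2 arrays lay below both controls. TNFAIP3 had 8.02, 7.69, 7.97 and 7.76 under shMBD2, against 8.82 and 8.97 under shNTC (-1.04 ± 0.33 log2, adjusted p = 0.0938). EBI3 had 9.26, 9.19, 9.42 and 9.23 under shMBD2, against 9.85 and 10.58 under shNTC (-0.94 ± 0.30 log2, adjusted p = 0.104). BCL2A1 differed by -0.87 ± 0.30 log2 (adjusted p = 0.126) and was detected on 1 of 4 shMBD2 arrays.

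Other members lay above the controls. NFKBIZ had levels of 9.22, 9.21, 9.35 and 9.36 under shMBD2, against 8.54 and 8.61 under shNTC (0.71 ± 0.26 log2, adjusted p = 0.154). TNF was at 8.02, 7.89, 7.91 and 7.82 under shMBD2 and at 6.87 and 7.49 under shNTC (0.73 ± 0.30 log2, adjusted p = 0.209). Neither group overlapped with its control and neither gene passed. LTA (-0.10 ± 0.16 log2), TRAF1 (0.12 ± 0.26), CD83 (0.41 ± 0.15), LITAF (0.27 ± 0.16) and NFKB2 (0.36 ± 0.17) did not pass. REL (-0.74 ± 0.27), NFKBIE (-0.48 ± 0.18) and ICAM1 (-0.58 ± 0.22) were below 0 and did not pass. The median was 0.11 log2 over components and -0.10 over targets, against 0.04 over all genes tested. An unadjusted limma p under 0.05 was found for 14 of 35 genes, a larger share than the 2395 of 13702 over all genes tested. Groups did not overlap for 16 genes, 7 above and 9 below, where 16.7% of all genes tested lay above, 12.1% below and 28.8% on either side. Between the MBD2 hairpins A and C, 0 of 35 genes passed and 0 had an unadjusted limma p under 0.05 (2 arrays against 2, 0% of all genes called, 282 genes with an unadjusted p under 0.05).

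**Figure D4:**
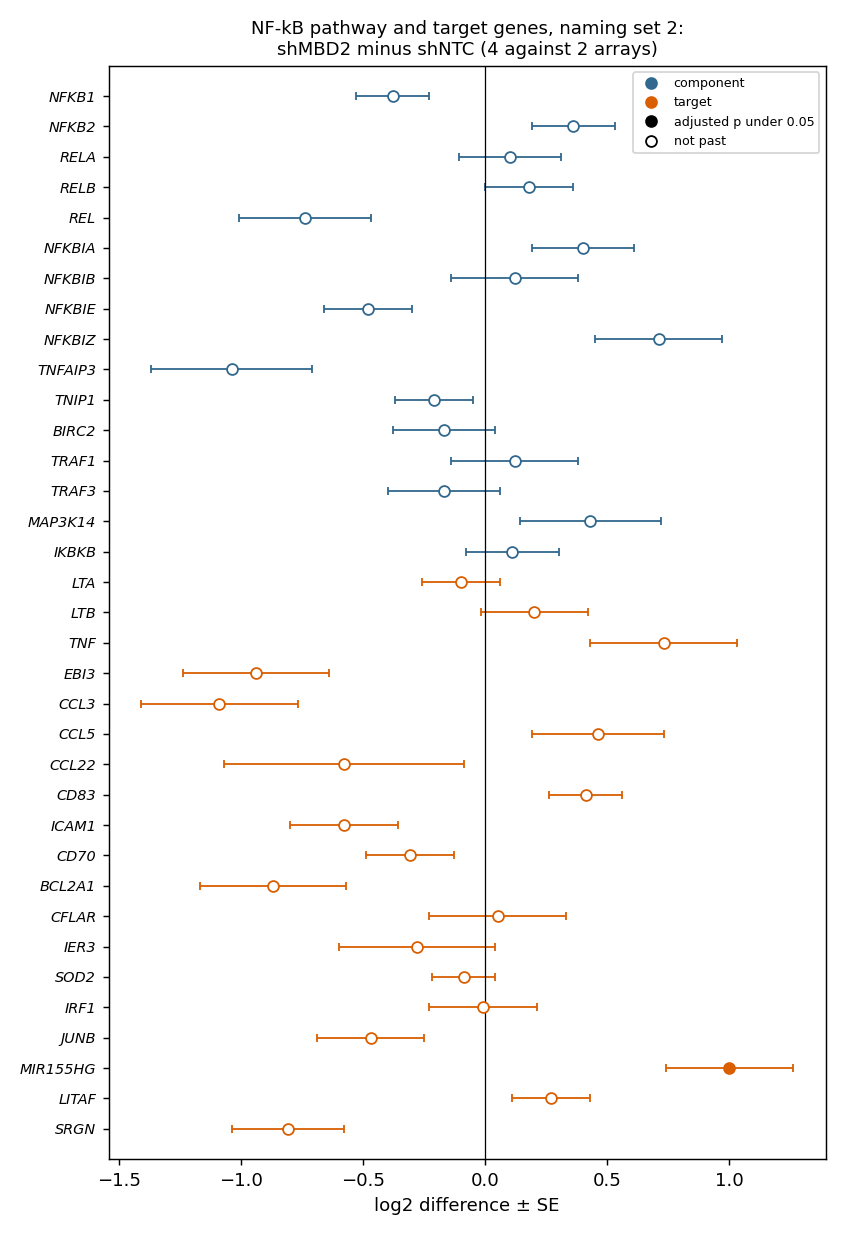
Difference of shMBD2 minus shNTC in set 2 for the 35 measured genes, components (blue) above targets (orange), in log2 with the standard error of limma's model (4 arrays against 2). The filled point passed an adjusted p of 0.05. MIR155HG at 1.00 is the highest point and CCL3 at -1.09 the lowest.

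Set against the comparison in set 1, the effects on some genes differed. MIR155HG was lower under shMS4A1 (-2.10 log2) and higher under shMBD2 (1.00 log2), each against the control of its own set. The test of the difference between both effects, which was chosen after seeing the data, called 6 of 35 genes, all with the lower effect under shMS4A1, where 0.161% of all genes tested were called lower, 0.0876% higher and 0.248% in either direction. These were MIR155HG (-3.10 ± 0.43 log2, adjusted p = 0.0161), LTA, CD83, TRAF1, LITAF and NFKB2. Each of these values also holds the gap between the controls, set 2 minus set 1. That gap was -1.75 log2 for TRAF1, -1.6 for MIR155HG, -0.51 for CD83, -0.38 for LTA, 0.27 for NFKB2 and 0.67 for LITAF. EBI3 (-1.51 ± 0.51, adjusted p = 0.284), SRGN (-0.97 ± 0.38, 0.378), TNFAIP3 (-0.88 ± 0.54, 0.621) and CCL3 (-0.09 ± 0.53, 0.979), which lay below 0 in both comparisons, did not pass.

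Genes of the pathway and targets outside the 38 were also counted, from lists of 38 genes each. Of 34 measured pathway genes, among them receptors, IKK subunits and signalling adaptors, 0 passed under shMS4A1 against shNTC (3 at an unadjusted limma p under 0.05), and their median was -0.08 log2. Under shCREM against shMS4A1, CD40, a receptor that activates the pathway in B cells (0.75 ± 0.19 log2, adjusted p = 0.0258), and TANK, a TRAF-binding regulator (1.01 ± 0.19, adjusted p = 0.0058), were higher, and IRAK1, a kinase downstream of Toll-like receptors, was lower (-0.59 ± 0.14, adjusted p = 0.0234). The other 31 did not pass, where 6.12% of all genes tested were called. Under shMBD2 the receptor gene TNFRSF13C was the 1 that passed, with 7.08, 6.90, 7.03 and 6.74 under shMBD2 and 9.40 and 7.46 under shNTC (-1.49 ± 0.38 log2, adjusted p = 0.0474), and 1 of 34 is close to the 2.86% of all genes called. Its control arrays were farther apart than the nearer control was from shMBD2.

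Of 28 further targets measured, 5 were lower under shMS4A1 against shNTC and 0 higher, where 0.161% of all genes tested were lower, and their median was -0.37 log2. They were CCR7, CXCL10, SLAMF1, RGS1 and BCL2. Under shCREM against shMS4A1, 8 were higher and 0 lower, the same 5 and CD86, PLEK and SQSTM1, where 2.87% of all genes tested were higher. Under shMBD2 4 were lower and 0 higher, where 1.31% of all genes tested were lower. RGS1, a regulator of G protein signalling, had levels of 7.88, 8.03, 7.87 and 7.96 under shMBD2, against 10.29 and 9.74 under shNTC (-2.08 ± 0.25 log2, adjusted p = 0.00041). The other 3 were SLAMF1 (-1.60 ± 0.31), BCL2 (-0.92 ± 0.18) and the chemokine receptor CCR7 (-0.79 ± 0.18). These lists were also drawn up with earlier results of these data known, so their counts are descriptions.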

How the data were processed

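Total RNA of 12 Raji samples was measured on Illumina BeadChip arrays. The authors deposited raw probe intensities with a detection p-value for each probe and array, and a table of processed intensities on a linear scale (array medians of 100.37 to 101.12 in set 1 and 81.35 to 82.65 in set 2), which were log2-transformed here and used as an alternative. For their normalization, the method was not given in the sources used here. Both tables were joined by their values (48105 probes matched one to one). Intensities were background-corrected, quantile-normalized and log2-transformed with limma 3.58.1 (neqc, offset 16, R 4.3.3). Probes with a detection p-value under 0.05 on 2 or more arrays were kept, with 1 probe per gene, that of highest mean. Of the probes, 30113 had 1 symbol, 8 several and 17984 none. A linear model with group and array set (6 residual degrees of freedom) was fitted to 13702 genes over all 12 arrays, with intensity trend and two-sided p-values adjusted by Benjamini-Hochberg over all genes, at a threshold of 0.05. Values after ± are standard errors. Array sets were taken from the form of the labels. The number of arrays limits the precision. Named genes are the members of the list. Members and lists were chosen with earlier results of these data known. Alternatives covered normalization, offset, filter, probe choice, model terms and leaving out each array. Same-numbered arrays of set 2 did not deviate together (correlations -0.09, -0.01 and -0.03), so numbers were not taken as pairs.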

Additional observations from a re-analysis of the deposited data

Results flagged for a closer look

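For 6 genes the effect of shMS4A1 and the effect of shMBD2, each against the control of its own array set, differed in a test of the difference itself that was added after seeing the data (limma, adjusted over all genes). MIR155HG differed by -3.10 ± 0.43 log2 (adjusted p = 0.0161), and this call was lost in 4 of 23 alternative settings. LTA differed by -1.53 ± 0.26 log2 (adjusted p = 0.0368, lost in 12 settings) and CD83 by -1.44 ± 0.25 (0.0383, lost in 11). TRAF1 differed by -2.31 ± 0.43 log2 (adjusted p = 0.04, lost in 13), LITAF by -1.41 ± 0.26 (0.0433, lost in 12) and NFKB2 by -1.48 ± 0.28 (0.0464, lost in 12). The effects come from separate array sets, so array set and knockdown cannot be told apart. The gap between the controls, set 2 minus set 1, is part of each difference. It was -1.75 log2 for TRAF1 and -1.6 for MIR155HG, and above 0 for NFKB2 (0.27) and LITAF (0.67).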

How the results depend on the processing

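No single-gene call reversed its direction under any alternative run, and for single genes 412 values stayed on their side of the threshold and 145 lost it. Counts of genes called and differences of medians were only checked for staying close to the main run. Of these values 271 stayed close and 123 moved. For shMS4A1 against shNTC, 6 members and 27 genes were called. The members were 3 and the genes 13 with the mean of all detected probes, 0 and 1 with the naming set alone, 2 and 12 with no intensity trend, and 10 and 47 with array weights. The genes were 41 with no filter, and there were 9 members and 235 genes with no set block. Leaving out single arrays gave 1 to 10 members and 7 to 47 genes. The median of targets minus that of components (-0.40 log2) was -0.54 with induced components counted as targets, -0.25 with quantile normalization and with the authors' processed values, -0.31 with an offset of 50, -0.30 with no set block, and -0.55 to -0.33 without single arrays. For shCREM against shNTC, 0 members and 1 gene were called. With no set block these were 2 and 240. The genes were 4 with the authors' processed values, 8 with no filter, 0 with detection on 3 or 6 arrays, 3 with the mean of probes and 0 with the naming set alone. Without single arrays there were 0 to 2 members and 1 to 142 genes, and the difference of medians (0.00) was -0.22 to 0.00. For shMBD2 against shNTC, 1 member and 392 genes were called. The members were 0 with normalization per set, an offset of 50, no filter, the mean of probes, no set block, the replicate block, no trend or array weights, 2 with quantile normalization, 4 with the naming set alone, and 0 to 5 without single arrays. The genes were 243 with no filter, 38 with no set block, 237 with array weights and 33 to 1062 without single arrays. The difference of medians (-0.21) was 0.00 with the mean of probes, -0.03 with no set block and -0.37 to -0.08 without single arrays. For shCREM against shMS4A1, the 10 members ranged from 7 to 12, and the 839 genes were 556 with no filter, 350 with the naming set alone, 330 with no set block, 527 with no trend and 406 to 1036 without single arrays. The difference of medians (0.58) was 0.29 with quantile normalization, 0.32 with the authors' values and 0.28 to 0.61 without single arrays. For the difference between the shMS4A1 and shMBD2 effects, 6 members and 34 genes were called. These were 1 and 7 with no filter, 2 and 5 with the mean of probes, 11 and 1629 with no set block, 1 and 2 with the replicate block, 0 and 1 with no trend, and 0 to 8 and 1 to 181 without single arrays. The causes were not tested. The naming set alone cannot give the difference between effects, and without shNTC replicate 3 set 1 has no control. BCL2A1 and IER3 lay near background.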

Other observations

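The control arrays differed between the sets on some members. The controls of set 2 averaged 6.93 for CCL22 and 8.13 for JUNB, against 8.30 and 6.75 on the control of set 1. With TRAF1 and MIR155HG, 4 of 35 members differed by more than 1 log2 (11.4%), against 7.12% of all genes tested. Between the 2 controls of set 2, 1 of 35 members did (2.86%), against 3.70% of all genes.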
